A study of Mus musculus with 16 samples.

Results

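The CC chemokine genes of mouse chromosome 11 were examined as 2 clusters, with Ccl2, Ccl7, Ccl12 and Ccl8 in the first and Ccl5, Ccl9, Ccl6, Ccl3 and Ccl4 in the second. Overlapping ATAC-seq peaks of the 4 deposited lists were merged into 37648 regions. The 48 regions whose midpoint lay no more than 100 kb from the transcription start site (TSS) of any of the 9 genes were kept, 18 at the Ccl2 cluster and 30 at the Ccl3-Ccl5 cluster, each counted once. The libraries came from bone marrow-derived macrophages (BMDMs) of wild-type C57BL/6J mice, female and 8 to 10 weeks old per the study's methods, with 4 libraries, each from a separately differentiated culture, in each of 4 groups. On day 8 of culture, after a day without serum, the Veh group received DMSO and the T0 group received 500 nM T0901317, a synthetic agonist of the liver X receptor (LXR), for 3 h. The LPS group had the DMSO treatment followed by 10 ng/mL lipopolysaccharide (LPS), which stimulates TLR4, for a further 2 h, and the T0-LPS group had T0901317 followed by the same LPS stimulation. Groups with LPS were therefore also 2 h longer in culture, and LPS and time cannot be told apart. Per the study's methods, LPS was put into the medium that still held the agonist. T0-LPS cells thus had T0901317 for 2 h longer than T0 cells. Differences with T0 in the 2 pairs of lists, without and with LPS, therefore also differ in agonist time. Each list pooled the 4 libraries of a group, so the values below have no replicate error and no test, and every comparison is between 4 pooled lists.

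Chemokines of the CC class are small secreted proteins that attract leukocytes through G protein-coupled receptors, and macrophages are a major source of them. Ccl2, Ccl7 and Ccl12 encode monocyte chemoattractants that act through CCR2, and Ccl8 belongs to the same branch of the family. Ccl3, Ccl4 and Ccl5 encode inflammatory chemokines that attract monocytes and T cells, and Ccl6 and Ccl9 encode CCR1 ligands found in rodents. Many of these genes are transcribed within hours of TLR4 stimulation, with NF-kB as a well known activator. LXR senses oxysterols, drives cholesterol export genes and can restrain inflammatory genes in macrophages.

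The Ccl2 cluster spanned 79.6 kb between its first and last TSS and the Ccl3-Ccl5 cluster 132 kb, with 1415 kb between them. No region was shared by the clusters. Positions are 1-based in GRCm38 (mm10), and gene models are those of GENCODE vM21. The genes lie on chromosome 11 as follows. Ccl2 (82035571 to 82037453), Ccl7 (82045712 to 82047525), Ccl12 (82101845 to 82103400) and Ccl8 (82115185 to 82116799) are on the plus strand. Ccl5 (83525778 to 83530518), Ccl9 (83572919 to 83578636), Ccl6 (83587882 to 83593087) and Ccl3 (83647844 to 83649355) are on the minus strand, and Ccl4 (83662584 to 83664683) is on the plus strand. Each region is named by the distance of its midpoint from the nearest member TSS. The peak score is the score of the authors' peak caller, and because it grows with pooled sequencing depth, it was read as a percentile, the percent of all peaks in the same list with a score at or below it. The Veh list held 35551 peaks, the T0 list 29839, the LPS list 33181 and the T0-LPS list 31085. The T0 list was the shortest, and a list with fewer weak peaks places the same region at a lower percentile. A common percentile was therefore also computed, over the 26439 regions with a peak in every list. All 10 macrophage marker genes on a fixed list had a peak within 1 kb of the TSS in the Veh, LPS and T0-LPS lists and 9 of them in the T0 list, whereas none of 5 neutrophil or 5 T cell markers had one in any list. At most 2 of 5 B cell markers (Ms4a1 and Ebf1) had one, 2 of 4 dendritic cell markers (Flt3 and Zbtb46) in each list, and 1 of 4 fibroblast markers (Col1a1) in Veh alone. The authors had kept only peaks at marked macrophage enhancers. Peaks at markers of other cells could have been removed by that filter, so their absence cannot show which cells were present.

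Sequences are given for every region of the clusters that held a consensus NF-kB site in its central 200 bp. The regions with an NF-kB site did not share a single pattern of peaks across the lists. A region found with LPS alone and a region of the T0-closed class, both without an NF-kB match, are also given. NF-kB matches were found at 1 of 18 regions of the Ccl2 cluster and 4 of 30 of the Ccl3-Ccl5 cluster, against 4.30% of all regions. Sequences are shown on the plus strand, 5′ to 3′, at most 300 bases at the centre of the region, and capitals mark the match to the NF-kB consensus on either strand.
Ccl5, 4.41 kb upstream, chr11:83534777-83535076: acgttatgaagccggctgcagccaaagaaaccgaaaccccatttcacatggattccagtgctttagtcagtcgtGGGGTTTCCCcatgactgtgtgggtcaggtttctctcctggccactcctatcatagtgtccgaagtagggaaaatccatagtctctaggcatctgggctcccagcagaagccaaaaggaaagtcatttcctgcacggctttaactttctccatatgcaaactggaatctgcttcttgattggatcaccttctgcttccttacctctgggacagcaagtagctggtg
Ccl5, 19.9 kb upstream, chr11:83550306-83550605: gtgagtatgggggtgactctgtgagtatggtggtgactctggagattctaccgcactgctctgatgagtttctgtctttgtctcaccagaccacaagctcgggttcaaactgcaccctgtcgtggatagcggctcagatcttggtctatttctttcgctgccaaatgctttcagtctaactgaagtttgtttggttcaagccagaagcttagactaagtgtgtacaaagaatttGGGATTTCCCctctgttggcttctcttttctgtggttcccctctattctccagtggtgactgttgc
Ccl5, start site, chr11:83530506-83530682: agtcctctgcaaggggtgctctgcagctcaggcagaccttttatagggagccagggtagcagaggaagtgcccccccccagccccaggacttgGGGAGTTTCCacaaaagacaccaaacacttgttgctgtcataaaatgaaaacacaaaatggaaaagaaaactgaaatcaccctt
Ccl4, 74.8 kb downstream, chr11:83737271-83737570: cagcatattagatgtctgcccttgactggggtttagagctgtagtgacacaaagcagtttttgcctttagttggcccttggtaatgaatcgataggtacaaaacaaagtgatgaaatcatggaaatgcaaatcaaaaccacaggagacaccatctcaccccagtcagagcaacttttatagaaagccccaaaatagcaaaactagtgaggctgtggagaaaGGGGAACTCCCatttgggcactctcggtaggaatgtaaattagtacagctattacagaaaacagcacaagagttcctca
Ccl2, 19.1 kb upstream, chr11:82016291-82016590: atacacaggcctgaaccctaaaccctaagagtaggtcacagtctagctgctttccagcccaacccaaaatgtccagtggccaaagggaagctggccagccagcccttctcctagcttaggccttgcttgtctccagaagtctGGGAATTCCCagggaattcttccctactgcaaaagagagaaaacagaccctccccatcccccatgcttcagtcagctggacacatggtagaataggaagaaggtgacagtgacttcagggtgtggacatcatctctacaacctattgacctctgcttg

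The first 2 of these regions held a peak with LPS and with T0-LPS and none without LPS, the next held a weak peak with T0-LPS alone, and the Ccl4 region held a peak in all lists with a higher percentile under LPS. The last held a peak in every list but T0. In the Ccl4 region, overlapping matches on both strands make up the capitals, and at Ccl2 and at 4.41 kb and 19.9 kb upstream of Ccl5 the same letters match on both strands. Of the 658 bp of the Ccl4 region, 14.4% were repeat-masked in the genome sequence, and at no region of either cluster was more than 50% masked. Masking was read from the lower-case letters of that sequence alone. No annotation of repeat families was used, so these values do not show that the regions are unique sequence.

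A further pair of sequences shows regions without an NF-kB match. In the region 81.1 kb downstream of Ccl4, which held a peak with LPS alone, capitals mark an AP-1 site (TGACTCA or TGAGTCA). In the region 10.7 kb upstream of Ccl5, which held a peak in every list but T0, capitals mark a match with up to 2 mismatches to DR4, the direct repeat of the nuclear receptor half-site to which LXR can bind, on the minus strand. The central 200 bp of that region also held an AP-1 site and an IRF site, left in lower case. The other DR4 match of the clusters, not shown, lay 23.7 kb upstream of Ccl6, in a region with a peak in every list.
Ccl4, 81.1 kb downstream, chr11:83743573-83743872: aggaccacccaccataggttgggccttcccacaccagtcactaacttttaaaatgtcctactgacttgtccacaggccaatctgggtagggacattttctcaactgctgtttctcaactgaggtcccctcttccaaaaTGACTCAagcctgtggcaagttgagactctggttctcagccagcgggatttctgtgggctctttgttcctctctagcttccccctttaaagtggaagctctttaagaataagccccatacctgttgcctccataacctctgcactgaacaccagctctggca
Ccl5, 10.7 kb upstream, chr11:83541032-83541331: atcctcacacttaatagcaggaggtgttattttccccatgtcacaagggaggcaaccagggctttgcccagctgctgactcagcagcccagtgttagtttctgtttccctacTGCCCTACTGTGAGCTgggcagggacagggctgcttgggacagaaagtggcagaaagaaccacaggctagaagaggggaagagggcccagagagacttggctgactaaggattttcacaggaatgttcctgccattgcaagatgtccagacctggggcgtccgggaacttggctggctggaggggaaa

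The Ccl2 cluster held a peak at 17 of its 18 regions in Veh, 12 in T0, 14 in LPS, 12 in T0-LPS. All 4 lists had a peak at 9 regions (50.0%, against 70.2% of all regions). The strongest region of the cluster in each list lay at the Ccl2 TSS, whose gene encodes the main monocyte chemoattractant of macrophages. It was at percentile 90.3 for Veh, 84.8 for T0, 87.7 for LPS and 88.2 for T0-LPS. The map of the Ccl2 cluster shows that 9 of its other 17 regions lay upstream of Ccl2, and that 2 lay beyond the Ccl8 TSS.

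**Figure D1:**
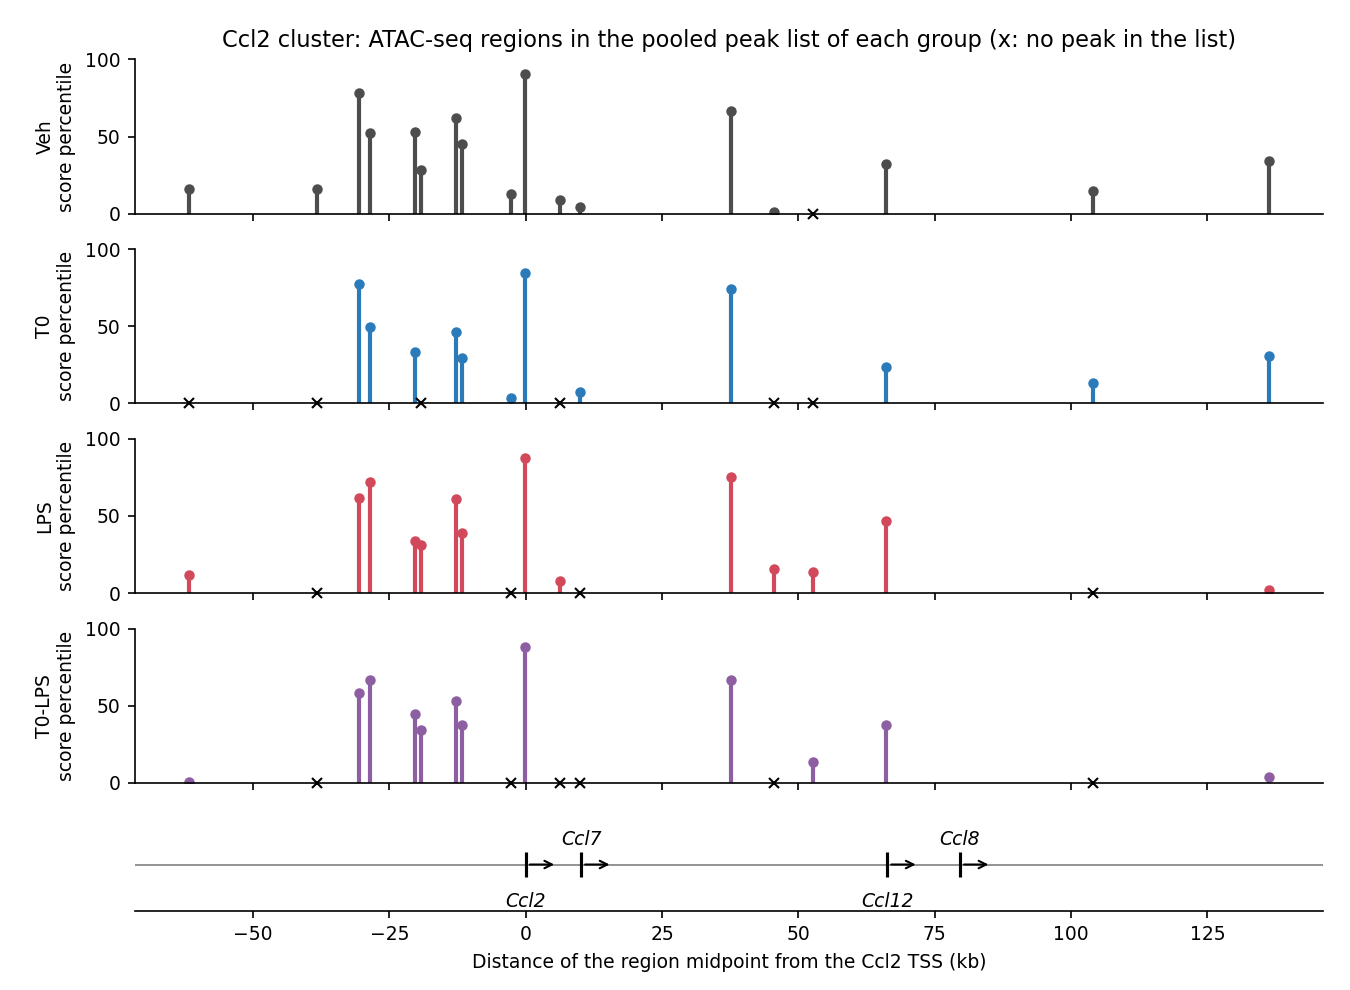
Score percentile within the list (vertical axis, percent) of the 18 regions of the Ccl2 cluster against the distance of the region midpoint from the Ccl2 TSS in kb, with 1 panel per pooled list and the member TSSs and their strand below. Crosses mark regions without a peak in that list, which numbered 1 in Veh, 6 in T0, 4 in LPS, 6 in T0-LPS.

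The Ccl3-Ccl5 cluster held a peak at 25 of 30 regions in Veh, 19 in T0, 28 in LPS, 28 in T0-LPS, and at 18 regions (60.0%) in all lists. Its strongest region in Veh, LPS and T0-LPS lay 198 bp upstream of Ccl3, at percentile 86.4 for Veh, 73.9 for T0, 86.5 for LPS and 82.8 for T0-LPS. In T0 a region 57.6 kb downstream of Ccl5 ranked higher, at 76.9. The map of the Ccl3-Ccl5 cluster shows the contrast around Ccl5. From its TSS to 19.9 kb upstream there were 6 regions, of which 2 had a peak in Veh, none in T0, 5 in LPS, and all 6 in T0-LPS.

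**Figure D2:**
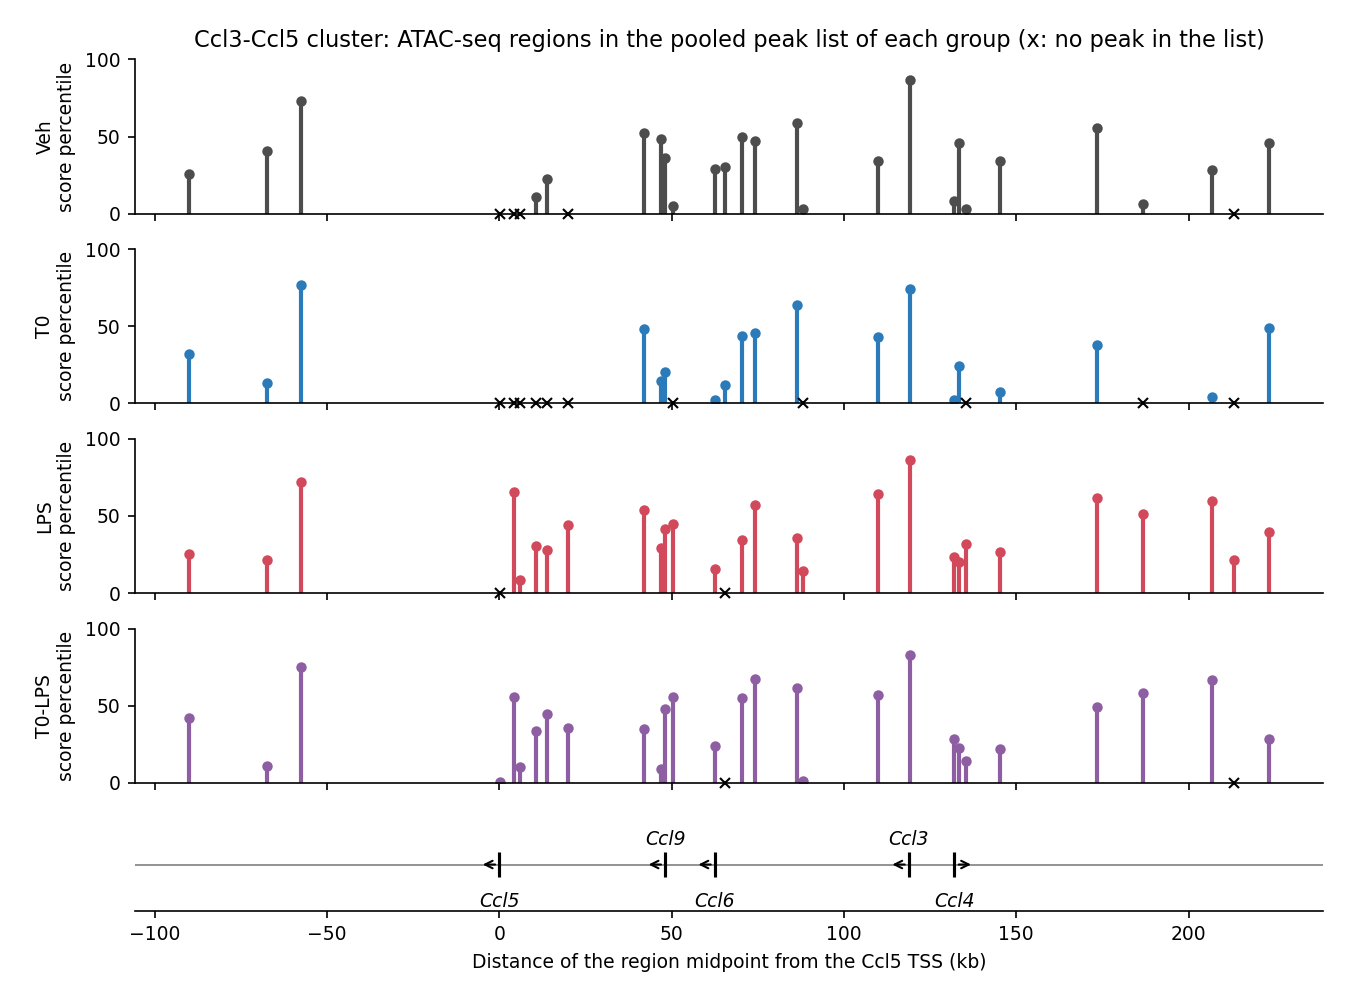
Score percentile within the list (vertical axis, percent) of the 30 regions of the Ccl3-Ccl5 cluster against the distance of the region midpoint from the Ccl5 TSS in kb, with 1 panel per pooled list and the member TSSs and their strand below. Crosses mark regions without a peak in that list, 5 in Veh, 11 in T0, 2 in LPS, 2 in T0-LPS, and in Veh and T0 they gather upstream of Ccl5.

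At the start sites themselves, the rank of the peaks covered a wide range among the 9 genes. Within 1 kb of the TSS, Ccl2 and Ccl3 had the highest-ranked peaks in every list. Ccl12, Ccl9, Ccl6 and Ccl4 had weaker peaks in all lists. Ccl7, Ccl5 and Ccl8 had a peak in some lists or in none.

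Among the genes with weaker peaks, the Ccl12 region 222 bp upstream was at percentile 32.5 for Veh, 23.3 for T0, 46.9 for LPS and 37.6 for T0-LPS. The Ccl9 region 117 bp downstream, in its untranslated exon, was at 35.8, 20.1, 41.5 and 47.8 in the same order of lists. The Ccl6 region 73 bp downstream, also in an untranslated exon, was at 28.7, 2.21, 15.6 and 24.0. The Ccl4 region 74 bp upstream was at 8.16 for Veh, 2.28 for T0, 23.5 for LPS and 28.1 for T0-LPS. Ccl12, Ccl9 and Ccl4 thus ranked higher with LPS than without it in both pairs of lists, whereas Ccl6 ranked lower in LPS than in Veh. All 4 of these regions were lowest in T0. With the common percentile the Veh and T0 values were 13.6 and 16.7 for Ccl12, 17.1 and 13.8 for Ccl9, 10.3 and 1.07 for Ccl6, and 0.866 and 1.09 for Ccl4, so that Ccl12 and Ccl4 were no longer lower in T0.

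Ccl7 had a region 172 bp upstream (82045362 to 82045718, intergenic) with a score of 94 in Veh and 104 in T0, at percentiles 4.21 and 7.60. The LPS and T0-LPS lists had no peak there, although the numbering in both lists left room for 1 called peak removed by the authors' enhancer filter. That peak could lie anywhere between the flanking peaks. These lay 3579 bp before and 27262 bp after the TSS in LPS, and 10009 bp before and 27305 bp after it in T0-LPS. No peak was found within 1 kb of the Ccl8 TSS in any list, and none of the lists had room for a removed one. The nearest Veh peaks ended 13317 bp before and began 24352 bp after it. Ccl5 had no peak within 1 kb in Veh, T0 or LPS, with no room for a removed one. In T0-LPS a peak of 177 bp lay at the Ccl5 TSS, scoring 55, which is percentile 0.505 of the list.

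**Figure D3:**
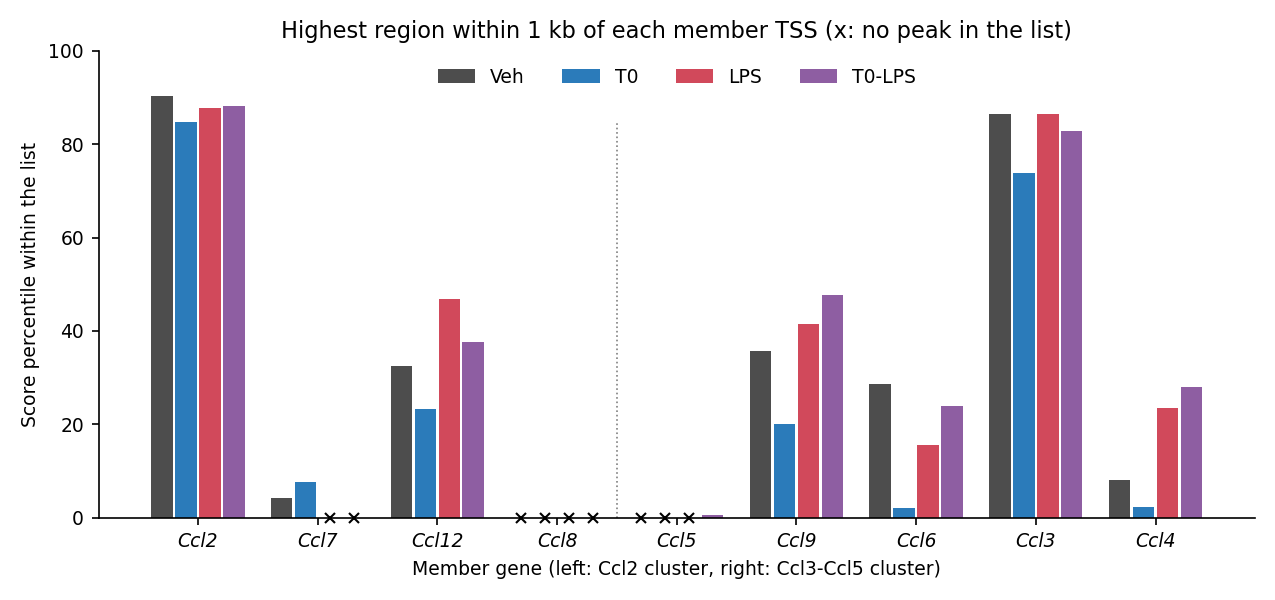
Score percentile within the list (vertical axis, percent) of the highest region within 1 kb of each member TSS, with 1 bar per pooled list and crosses where the list had no peak. Ccl2 ranged from 84.8 to 90.3 and Ccl3 from 73.9 to 86.5, Ccl8 had no peak, and Ccl5 had a single peak at percentile 0.505 in T0-LPS.

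The comparison of LPS with Veh asked which chemokine regions opened or closed upon TLR4 stimulation. Of the regions with an LPS peak, 4 of 28 at the Ccl3-Ccl5 cluster (14.3%, Wilson 95% interval 5.70 to 31.5%, counting error only) and 1 of 14 at the Ccl2 cluster (7.14%, 1.27 to 31.5%) had no Veh peak. The share over all regions was 6.14%. Both intervals include the share over all regions. The Veh list left no room for a removed peak at any of these 5 regions, termed LPS-opened. With every list shortened to its 29839 highest peaks, the LPS-opened regions numbered 9 at the Ccl3-Ccl5 cluster and 3 at the Ccl2 cluster.

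The strongest LPS-opened region lay 4.41 kb upstream of Ccl5 (83534675 to 83535179, intergenic), with the first of the NF-kB sites shown above. It had a score of 447 in LPS, at percentile 65.3, and 330 in T0-LPS, at 55.7. A second region 19.9 kb upstream of Ccl5 (83550226 to 83550687, intergenic), also with an NF-kB site, had a score of 281 in LPS, at percentile 44.4, and 209 in T0-LPS, at 35.8. These 2 were the LPS-opened regions of the clusters with an NF-kB match, out of 5, against 18.1% of all LPS-opened regions. A further region 6.02 kb upstream of Ccl5 (83536339 to 83536735) was weaker, with a score of 107 in both lists. Ccl5 encodes a chemoattractant of T cells and monocytes, and the interval upstream of it contained 3 of the 5 LPS-opened regions.

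The LPS-opened region of the Ccl2 cluster lay 13.7 kb upstream of Ccl12 (82088059 to 82088294, intergenic). It had a score of 126 in LPS and 118 in T0-LPS, at percentiles 13.5 and 13.4. The fifth lay 81.1 kb downstream of Ccl4 (83743571 to 83743875, intergenic), with a score of 158 in LPS, at percentile 21.3, and no peak in the other lists. Of the 5 LPS-opened regions, 3 of 4 at the Ccl3-Ccl5 cluster and the single one at the Ccl2 cluster retained a peak in T0-LPS, against 53.0% of all LPS-opened regions.

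LPS-closed regions, with a Veh peak and no LPS peak, numbered 4 of 17 at the Ccl2 cluster (23.5%, 9.56 to 47.3%) and 1 of 25 at the Ccl3-Ccl5 cluster (4.00%, 0.710 to 19.5%), against 13.0% of all regions with a Veh peak. With the shortened lists there was 1 at the Ccl2 cluster. None of the 5 had a T0-LPS peak, as was the case for 84.5% of all LPS-closed regions. At the Ccl2 cluster 1 of the 4 was the region at the Ccl7 TSS. Another lay 2.74 kb upstream of Ccl2 (82032719 to 82032951, in an intron of Gm17268), with scores of 135 in Veh and 86 in T0. A region 24.4 kb downstream of Ccl8 (82139508 to 82139742, intergenic) had scores of 142 and 125 in those lists. The fourth, 38.3 kb upstream of Ccl2 in an intron of Gm31522, had a Veh peak alone, with a score of 150. At the Ccl3-Ccl5 cluster the LPS-closed region lay 2.81 kb upstream of Ccl6 (83595778 to 83596026, in an intron of E230016K23Rik), at percentile 30.4 in Veh and 11.7 in T0.

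Among regions with a peak in both Veh and LPS, 10 of 24 at the Ccl3-Ccl5 cluster had a lower percentile in LPS and 8 of 13 at the Ccl2 cluster, against 60.2% of all regions. Ranked over the shared regions the numbers were 8 of 18 and 5 of 9, against 49.4%, close to the share over all regions at both clusters. Single regions differed more. The region 74.8 kb downstream of Ccl4, with an NF-kB site, was at percentile 28.2 for Veh, 4.35 for T0, 59.5 for LPS and 66.4 for T0-LPS. A region 8.89 kb downstream of Ccl3 (83640208 to 83640713, intergenic) was at 34.0, 43.0, 64.5 and 56.9 in the same order. The differences in common percentile between LPS and Veh at these 2 regions were 40.3 and 41.1 points.

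At the Ccl2 cluster, the region 28.5 kb upstream of Ccl2 (82006786 to 82007442, in an intron of Gm31522) was higher with LPS, at percentile 72.1 against 52.6 in Veh. Its neighbour 30.6 kb upstream (82004703 to 82005219), in the same intron, was lower, at 61.7 against 78.3, as was the region 20.2 kb upstream, at 33.5 against 52.9. The Ccl8 region 56.7 kb downstream of the TSS (82171702 to 82172026) was at 34.0 for Veh, 31.0 for T0, 2.28 for LPS and 3.86 for T0-LPS, low in both lists with LPS. In the second cluster, lower values with LPS were found in an intron of Ccl4 1.17 kb downstream of its TSS, at 20.1 against 46.1 in Veh, and 23.7 kb upstream of Ccl6, at 35.7 against 58.5. The start site and the intron of Ccl4, which encodes an inflammatory chemokine, thus ranked in opposite directions between Veh and LPS.

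Without LPS, the T0 and Veh lists were compared to ask where LXR activation was accompanied by the loss or gain of a chemokine peak. T0-closed regions, with a Veh peak and no T0 peak, numbered 6 of 25 at the Ccl3-Ccl5 cluster (24.0%, 11.5 to 43.4%) and 5 of 17 at the Ccl2 cluster (29.4%, 13.3 to 53.1%), against 18.1% of all regions with a Veh peak. Both intervals include the share over all regions. When each list was shortened to its 29839 highest peaks, the length of the T0 list, there was 1 T0-closed region at each cluster. T0-opened regions were not found at either cluster, at 0 of 12 (Wilson upper bound 24.2%) and 0 of 19 (upper bound 16.8%) regions with a T0 peak, against 0.729% of all regions. With the shortened lists there were 3 T0-opened regions at the Ccl2 cluster and 1 at the Ccl3-Ccl5 cluster, more than the T0-closed ones at the first and as many at the second. At 9 of the 11 T0-closed regions the T0 numbering left no room for a removed peak, the exceptions being those 38.3 kb and 61.7 kb upstream of Ccl2.

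The 6 T0-closed regions of the Ccl3-Ccl5 cluster all held a peak in LPS and in T0-LPS, as did 29.5% of all T0-closed regions. They were weak in Veh, with scores from 84 to 182 and percentiles from 2.92 to 22.3. Each ranked higher in LPS than in Veh. The region 54.7 kb downstream of Ccl4 (83717107 to 83717530, intergenic) had scores of 105 in Veh, 329 in LPS and 350 in T0-LPS, at percentiles 6.48, 51.5 and 58.3. The region 2.38 kb upstream of Ccl9 (83580853 to 83581190, intergenic) had scores of 99, 282 and 328 in those lists, at 5.18, 44.5 and 55.4. Neither had a peak in T0, and both ranked above the middle of the T0-LPS list.

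The other T0-closed regions of this cluster lay 10.7 kb (83540992 to 83541373) and 14.0 kb (83544329 to 83544622) upstream of Ccl5, 25.4 kb upstream of Ccl6 (83618289 to 83618727) and 3.35 kb downstream of Ccl4 (83665728 to 83666134). The region 10.7 kb upstream of Ccl5 had scores of 127 in Veh, 202 in LPS and 200 in T0-LPS. The region 14.0 kb upstream of Ccl5 had scores of 182 in Veh, 189 in LPS and 257 in T0-LPS. In T0-LPS these upstream regions were at percentiles 33.8 and 44.6, against 30.5 and 27.7 in LPS. The region 25.4 kb upstream of Ccl6 was at 2.92 in Veh, 14.2 in LPS and 1.04 in T0-LPS. The region 3.35 kb downstream of Ccl4 was at 3.02 in Veh, 31.9 in LPS and 14.2 in T0-LPS, and like the one at Ccl6 it ranked lower with T0-LPS than with LPS.

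At the Ccl2 cluster, 2 of the 5 T0-closed regions held peaks in LPS and T0-LPS. The region 19.1 kb upstream of Ccl2 (82016166 to 82016716, in an intron of Gm31522) held the palindromic NF-kB site shown above. It had the highest Veh score of the T0-closed regions of either cluster, though not the highest in LPS or T0-LPS. Its scores were 216 in Veh, 206 in LPS and 202 in T0-LPS, at percentiles 28.2, 31.0 and 34.1. The region 61.7 kb upstream of Ccl2 had scores of 150 in Veh, 118 in LPS and 49 in T0-LPS. A pair of T0-closed regions, 3.82 kb upstream of Ccl7 and 20.8 kb upstream of Ccl12, had an LPS peak and no T0-LPS peak, so that neither list with T0 contained them. Their scores were 118 in Veh and 104 in LPS at Ccl7, and 71 in Veh and 134 in LPS at Ccl12. In T0-LPS there was room for 1 removed peak at the Ccl7 region and none at the Ccl12 region. The room at this Ccl7 region was the same missing number as at the Ccl7 TSS.

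Regions with a peak in both Veh and T0 ranked lower in T0 at 10 of 12 regions of the Ccl2 cluster and 14 of 19 of the Ccl3-Ccl5 cluster, against 77.0% of all such regions. The median difference was -4.23 percentile points at the Ccl2 cluster and -12.5 at the Ccl3-Ccl5 cluster, against -5.55 over all regions. On the common percentile, 4 of 9 and 9 of 18 regions were lower in T0, against 48.7% of all regions, and the medians became 3.06 and -1.52. The sign of the Ccl2 cluster median thus depended on the ranking.

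Several single regions were lower in T0 by both measures. The region in an intron of Ccl9, 1.34 kb downstream of its TSS (83577075 to 83577511), was at percentile 48.7 in Veh and 14.2 in T0, with a common percentile of 32.3 and 8.91. In stimulated cells it was at 29.2 in LPS and 9.21 in T0-LPS, with common percentiles of 16.3 and 4.26. This region of Ccl9, a CCR1 ligand gene, was therefore lower with T0 in both pairs of lists. The region at the Ccl9 TSS was lower in T0 than in Veh and higher in T0-LPS than in LPS.

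The region 67.5 kb downstream of Ccl5, in an untranslated exon of Mmp28, was at 40.6 in Veh and 13.3 in T0. The region 13.3 kb downstream of Ccl4 (83675753 to 83676070, intergenic) was at 34.0 and 7.47. At the Ccl2 cluster the 3 largest decreases with T0 were all upstream of Ccl2. The region 20.2 kb upstream was at 52.9 in Veh and 33.5 in T0, the one 12.8 kb upstream at 62.3 and 46.2, and the one 11.6 kb upstream at 45.4 and 29.6. Ranked over the shared regions, their differences were -10.9, -9.79 and -5.27 points.

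Higher percentiles in T0 than in Veh were found 27.5 kb downstream of Ccl7 (82072974 to 82073406, intergenic), at 74.2 against 66.7, and 8.89 kb downstream of Ccl3, at 43.0 against 34.0. Ranked over the shared regions these differences were 15.3 and 21.6 points. At the Ccl3 TSS, whose gene encodes a CCR1 ligand, the common percentile was 81.8 for Veh, 70.7 for T0, 83.2 for LPS and 79.9 for T0-LPS. At the Ccl2 TSS it was 87.1, 82.9, 84.7 and 86.2 in the same order, a narrower range.

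The same question was put to stimulated cells with the LPS and T0-LPS lists, where agonist exposure was also 2 h longer. Regions termed T0-closed-in-LPS, with an LPS peak and no T0-LPS peak, numbered 2 of 14 at the Ccl2 cluster (14.3%, 4.01 to 39.9%) and 1 of 28 at the Ccl3-Ccl5 cluster (3.57%, 0.633 to 17.7%), against 9.97% of all regions with an LPS peak. The 3 regions were those 3.82 kb upstream of Ccl7, 20.8 kb upstream of Ccl12 and 81.1 kb downstream of Ccl4. T0-opened-in-LPS regions numbered 0 of 12 and 1 of 28, against 3.37% of all regions with a T0-LPS peak. The single one was the weak peak at the Ccl5 TSS described above.

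Among regions with a peak in both LPS and T0-LPS, 8 of 12 at the Ccl2 cluster and 12 of 27 at the Ccl3-Ccl5 cluster ranked lower in T0-LPS, against 60.6% of all such regions. The median difference was -2.34 points at the first and 2.73 at the second, against -1.75 over all regions. On the common percentile 5 of 9 and 8 of 18 were lower, against 49.4%, with medians of -1.04 and 5.89. Ranked over all merged regions with a missing peak at 0, the Ccl2 cluster median turned to 0.235.

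Among the regions of the Ccl3-Ccl5 cluster found in every list, 2 of the 3 with the largest increase in T0-LPS lay upstream of Ccl6 in introns of E230016K23Rik. The region 23.7 kb upstream of Ccl6 (83616531 to 83616973) was at percentile 58.5 for Veh, 63.9 for T0, 35.7 for LPS and 61.7 for T0-LPS, so that LPS alone was the low list. The region 7.71 kb upstream (83600647 to 83600956) was at 49.4, 43.9, 34.4 and 54.8. On the common percentile, T0-LPS exceeded LPS by 32.8 and 26.3 points at these 2 regions. The third lay 90.0 kb downstream of Ccl5, in a coding exon of 1700020L24Rik, at 25.5 in LPS and 41.7 in T0-LPS. At the Ccl2 cluster the region 20.2 kb upstream of Ccl2 was at 33.5 in LPS and 44.4 in T0-LPS.

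Lower percentiles in T0-LPS were found at both LPS-opened regions with an NF-kB site upstream of Ccl5, given above, and at other parts of the cluster. Ranked over all merged regions with a missing peak at 0, these 2 were at 69.5 and 51.3 in LPS and at 63.6 and 47.4 in T0-LPS. The LPS-opened region 6.02 kb upstream of Ccl5, without an NF-kB match, was at 8.35 in LPS and 9.95 in T0-LPS. The one 13.7 kb upstream of Ccl12, also without a match, was at 13.5 and 13.4. Other regions with an NF-kB match went the other way. The region 74.8 kb downstream of Ccl4 was at 59.5 in LPS and 66.4 in T0-LPS, and the region 19.1 kb upstream of Ccl2 at 31.0 and 34.1. The Ccl5 TSS region, also with a match, had a peak in T0-LPS and none in LPS. The region 6.09 kb downstream of the Ccl9 TSS (83572223 to 83572868, intergenic) was at 53.9 in LPS and 34.8 in T0-LPS. The region 41.3 kb downstream of Ccl4 was at 61.9 and 49.2, and was also lower in T0 than in Veh, at 38.1 against 55.3. Among the regions of the Ccl2 cluster found in every list, the largest decrease within the list was at the Ccl12 TSS, from 46.9 in LPS to 37.6 in T0-LPS. By the common percentile the region 27.5 kb downstream of Ccl7 decreased more, with a difference of -8.10 points against -6.29 at Ccl12.

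**Figure D4:**
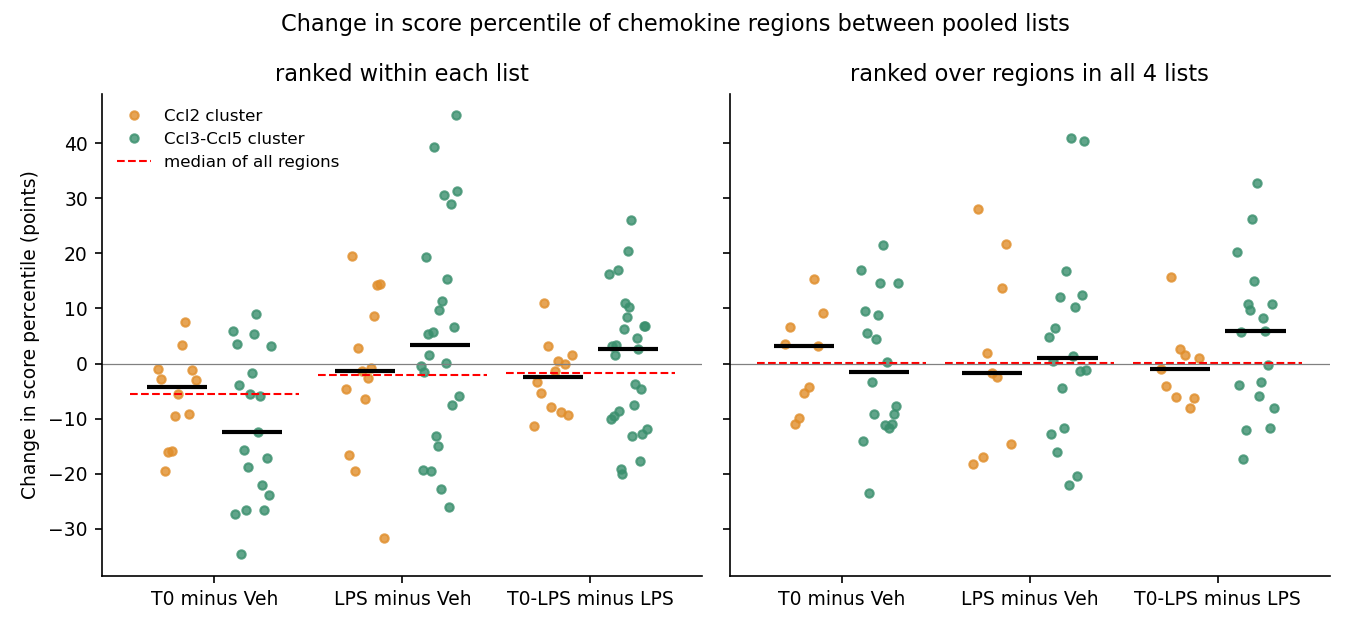
Difference in score percentile (vertical axis, percentage points) of regions with a peak in both lists, for T0 minus Veh, LPS minus Veh and T0-LPS minus LPS, ranked within each list on the left and over the regions found in all 4 lists on the right, with 1 point per region, black lines for the cluster medians and red dashed lines for the median of all regions. For T0 minus Veh the Ccl3-Ccl5 median was -12.5 on the left and -1.52 on the right.

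Peak widths were compared in the same way. Among regions with a peak in both Veh and T0, 11 of 12 at the Ccl2 cluster and 16 of 19 at the Ccl3-Ccl5 cluster were narrower in T0, against 87.6% of all such regions, with median differences of -16.6% and -19.6%, against -11.5% over all regions. Between Veh and LPS, 11 of 24 regions of the Ccl3-Ccl5 cluster and 9 of 13 of the Ccl2 cluster were narrower in LPS, against 67.8% of all such regions. The median differences were 3.41% and -5.74%, against -5.67% over all regions. Widths depend on pooled depth as scores do. The depth of the libraries was not used here, and its part in these differences was not tested.

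Other consensus motifs were counted in the central 200 bp of the 48 regions on either strand. An AP-1 site was found at 2 of 18 regions of the Ccl2 cluster and 3 of 30 of the Ccl3-Ccl5 cluster, against 13.4% of all regions. The nuclear receptor half-site AGGTCA was found at 2 and 5 regions (11.9% of all) and DR4 at 0 and 2 (1.94%). The 2 DR4 matches lay in the T0-closed region 10.7 kb upstream of Ccl5 and in the region 23.7 kb upstream of Ccl6. The latter ranked higher in T0 than in Veh, at 63.9 against 58.5, and higher in T0-LPS than in LPS, at 61.7 against 35.7. The core of the PU.1 site, GAGGAA, was found at 8 and 10 (35.1%), and the IRF site at 1 and 1 (3.80%). Of the 11 T0-closed regions, 1 had a half-site and 1 had DR4, against 11.8% and 1.97% of all T0-closed regions. AP-1 and IRF sites were each found at 2 of the 11, against 13.5% and 4.94%. These letter matches describe the sequences and do not show binding.

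RefSeq promoter sequences (GRCm38.p6), which run from 250 bases before the start site into the transcript, were matched for 5 of the 9 genes, namely Ccl12, Ccl8, Ccl9, Ccl6 and Ccl3. The Ccl9 promoter was the one with an NF-kB match, 35 to 26 bases before the start site and antisense to the gene, against 4.51% of all promoters. Its 250 bases before the start site are shown in the direction of the gene, with that match in capitals. The Ccl6 and Ccl3 promoters each had a half-site (16.3% of all promoters) and none of the 5 had AP-1 (5.20%). The Ccl12, Ccl8 and Ccl3 promoters each had a PU.1 match (28.3%).
Ccl9 promoter, chr11:83578637-83578886: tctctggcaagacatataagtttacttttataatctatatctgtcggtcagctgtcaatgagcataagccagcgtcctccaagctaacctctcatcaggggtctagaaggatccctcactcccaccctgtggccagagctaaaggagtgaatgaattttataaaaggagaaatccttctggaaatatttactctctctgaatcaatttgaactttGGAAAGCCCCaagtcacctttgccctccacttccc

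Each of the 9 member genes had a T0-closed region within 100 kb of its TSS, against 51.2% of all protein-coding genes, and each had an LPS-opened region, against 23.9%. The genes share these regions, so the counts rest on 11 T0-closed and 5 LPS-opened regions. Members also had many regions within 100 kb, from 14 at Ccl8 to 22 at Ccl9 and Ccl6. Of the 21910 protein-coding genes, only 17752 had any region. The shares per gene were not adjusted for this, and per region the intervals given above included the share over all regions. A T0-closed-in-LPS region was near 6 of the 9, against 34.3% of genes, resting on 3 regions. Of 8 other CC ligand genes, 5 had a T0-closed region, 3 an LPS-opened region and 2 a T0-closed-in-LPS region. They include Ccl11, the eotaxin gene between Ccl7 and Ccl12, which had no peak within 1 kb of its TSS in any list and shares its regions with the Ccl2 cluster.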

How the data were processed

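ATAC-seq was made from 16 libraries of 50000 BMDMs each. Per the labels and the study's methods, the authors trimmed reads with cutadapt, aligned them with Bowtie2 to mm10 and used SAMtools to drop PCR duplicates. MACS2 peaks (q threshold 0.001) were called once per group from its 4 libraries, and the authors kept peaks at macrophage enhancers marked by H3K27ac or H3K4me2 in other ChIP-seq data. The deposited score of each peak was the authors' peak caller score, with values that 10 times -log10 of a q-value would give. The depth of each library is unknown, and no per-library value was used, so no test was run. Wilson 95% intervals cover counting error only and treat neighbouring regions as independent.

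Peaks sharing at least 1 bp were merged, and the highest score was used where a region held several peaks of a list. Numbers missing between the names of flanking peaks were taken as called peaks that the enhancer filter removed ("room"). Regions were named if they lacked a peak in any list, lay within 1 kb of a member TSS, or, among regions found in every list, were among the 3 largest differences per cluster in either direction in a comparison. Other regions and genes were named after their values were seen. Motifs were matched with Python 3.11.15 and pysam 0.24.0 in the RefSeq GRCm38.p6 sequence. The set definitions were tested on simulated lists. Members, lists and alternatives were chosen with earlier results of these data known.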

Additional observations from a re-analysis of the deposited data

How the results depend on the processing

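No paired analysis was possible because the libraries of a group were pooled before peaks were called, and no replicate could be left out for the same reason. Of 64 counts of regions recomputed under the alternatives, 44 were within 1.5 times the reported count and 20 were not. With lists shortened to the 29839 highest peaks, T0-closed regions numbered 1 at each cluster, T0-opened 3 (Ccl2) and 1 (Ccl3-Ccl5), LPS-closed 1 (Ccl2), LPS-opened 3 (Ccl2) and 9 (Ccl3-Ccl5), and T0-closed-in-LPS 2 (Ccl3-Ccl5). With a score of at least 100, T0-opened regions numbered 1 (Ccl2), LPS-opened 2 (Ccl2) and 7 (Ccl3-Ccl5), T0-closed-in-LPS 2 and T0-opened-in-LPS 0 (Ccl3-Ccl5). With a reciprocal overlap of 50%, LPS-opened regions numbered 3 (Ccl2), and LPS-closed, T0-closed-in-LPS and T0-opened-in-LPS 2 each (Ccl3-Ccl5). Without regions that had room for a removed peak, T0-closed numbered 3 and T0-closed-in-LPS 1 (Ccl2). A window of 50 kb gave 0 T0-closed-in-LPS regions (Ccl3-Ccl5).

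Median percentile differences moved with the ranking, and the cause was not tested. At the Ccl2 cluster, T0 minus Veh (-4.23) turned to 3.06 over the regions in all lists and 4.34 over all regions with missing peaks at 0. LPS minus Veh (-1.43) became -1.74 and 1.73, and T0-LPS minus LPS (-2.34) became -1.04 and 0.235. At the Ccl3-Ccl5 cluster T0 minus Veh (-12.5) became -1.52 and -1.96, LPS minus Veh (3.39) became 0.921 and 6.61, and T0-LPS minus LPS (2.73) became 5.89 and 6.56. A window of 50 kb gave -5.48 for T0 minus Veh and -0.857 for LPS minus Veh at the Ccl2 cluster, and -14.1, 5.55 and 1.60 in the same order of differences at the Ccl3-Ccl5 cluster.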

Other observations

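The receptors of these chemokines were looked at in the same lists. Of 14 genes for CC receptors and related proteins, 11 had a T0-closed region within 100 kb of the TSS, against 51.2% of all protein-coding genes, resting on 26 distinct regions. An LPS-opened region was near 8, against 23.9%, resting on 6 regions, and a T0-closed-in-LPS region near 7, against 34.3%, resting on 9. Ccr1, Ccr2, Ccr3 and Ccrl2 lie near each other on chromosome 9 and share regions. The counts of receptor genes were not adjusted for the number of regions near each gene. Ccr1, whose product binds Ccl3, Ccl5, Ccl6 and Ccl9, had a region within 1 kb of its TSS at percentile 80.9 for Veh, 62.4 for T0, 59.0 for LPS and 71.7 for T0-LPS. Ccrl2, which encodes a chemerin-binding relative of these receptors, had a region at percentile 13.4 in Veh, 53.9 in LPS and 54.2 in T0-LPS and no peak in T0. Ccr3 had a weak start-site peak in LPS and T0-LPS, at percentiles 0.247 and 3.86. Ccr2, the receptor of Ccl2, had no peak within 1 kb of its TSS in any list. These receptor percentiles were ranked within each list, where the shorter T0 list places the same region lower, and common percentiles are not given for them. The differences between lists were not tested, as each list is a single pool.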
